A study of Saccharomyces cerevisiae with 6 samples.

Results

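The 10 genes described here encode the cytosolic Hsp90 chaperones of budding yeast (HSP82 and HSC82), co-chaperones of Hsp90 (STI1, CPR6, AHA1 and SBA1), the disaggregase Hsp104 (HSP104) and partners of Hsp70 (YDJ1, SIS1 and FES1). They were taken by gene symbol from the platform's annotation of array features. Each of the 10 symbols matched 1 feature, and the 10 are among 5365 named genes on the array, of which 5349 could be tested. Messenger RNA came from Saccharomyces cerevisiae S288C, the strain of the reference genome, in exponential growth at 25 °C in rich medium with glucose. On each array, Cy5 marked cells held for 2 h in 3.3 mM tetrachloroethylene (PCE), a chlorinated solvent, and Cy3 marked cells taken before the solvent was added. There were 3 independent biological samples with 1 array each, called hybridisations 1, 2 and 3, and every array was scanned at a high and at a low laser power. Dyes were not swapped and no untreated culture was kept for 2 h, so that solvent, elapsed time and dye cannot be told apart in any ratio.

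Hsp90 is an ATP-driven chaperone that takes over partly folded clients, among them kinases and transcription factors, from Hsp70. Co-chaperones set the pace of its ATPase cycle or join it to Hsp70, while Hsp104 pulls single polypeptides out of aggregates with the help of Hsp70 and its J-domain partners. In yeast many of these genes are controlled by the heat shock factor Hsf1, and some, HSP104 among them, also by the general stress factors Msn2 and Msn4.

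Values are log2 ratios of solvent-treated over untreated cells, as normalised by the authors. Base and direction are not stated in the labels and were taken from the size of the values and the dyes, and every sign below rests on that reading. The scans of an array were averaged, n is 3 hybridisations, errors after ± are SD, and adjusted p-values are from limma with Benjamini-Hochberg adjustment over all 5349 genes, with a threshold of 0.05. A ratio holds no absolute level, so the strain and the growth state could not be checked from marker levels.

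Of the 10 genes, SBA1 alone passed the threshold, as higher, and 0 passed as lower by limma, where 21.0% of all genes tested passed (9.14% higher and 11.9% lower). Before adjustment, 3 of the 10 had a p under 0.05 (SBA1, HSP104 and YDJ1), against 38.6% of all genes. A common sign in the 3 arrays was found for 4 of the 10, against 58.8% of all genes. SBA1 and HSP104 were above 0 throughout, as were 27.5% of all genes, and YDJ1 and FES1 were below 0 throughout, as were 31.3%. The median of the 10 mean log2 ratios was -0.17, beside -0.02 over all genes tested. For 9 of the 10 the 95% interval of the mean from limma lay inside a 2-fold change in either direction, which was so for 57.8% of all genes, and SBA1 was the exception. Those intervals borrow error from all genes. For HSP82, HSC82, CPR6, HSP104 and SIS1 the 3 arrays of the gene alone would give a wider interval that reaches 2-fold, so a change of that size is not excluded.

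**Figure D1:**
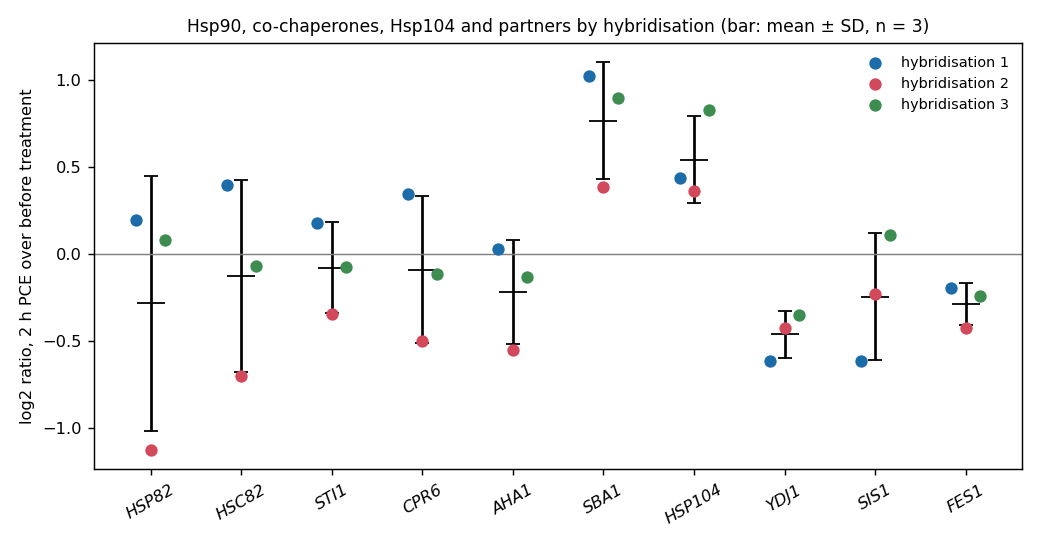
Log2 ratios of the 10 genes (vertical axis) in hybridisations 1 (blue), 2 (red) and 3 (green), with the mean as a horizontal mark and the SD over 3 hybridisations as a bar. SBA1 and HSP104 lay above 0 in all 3 hybridisations, YDJ1 and FES1 below 0 in all 3, and hybridisation 2 was the lowest for all but YDJ1 and SIS1.

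HSP82 and HSC82 encode the heat-inducible and the constitutive form of the same chaperone. HSP82 had log2 ratios of 0.19, -1.13 and 0.08 in hybridisations 1, 2 and 3. Hybridisation 2 was far below the other two, which lay just above 0. The mean was -0.28 ± 0.73 (n = 3, adjusted p = 0.502), and its 95% interval ran from a fold of 0.510 to a fold of 1.32. HSC82 had 0.40, -0.70 and -0.07, again with its lowest value in hybridisation 2, and a mean of -0.13 ± 0.55 (adjusted p = 0.737). The interval for HSC82 ran from 0.611-fold to 1.37-fold. A rise of 2-fold or more in either Hsp90 gene was thus outside the limma interval. That interval draws the error of each gene towards that of all genes, and both genes spread more than most. It is therefore narrower than their own 3 arrays would give, and a 2-fold rise is not excluded.

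The paralogues had the same order of arrays, with HSP82 minus HSC82 at -0.20, -0.42 and 0.15 and a mean difference of -0.16 ± 0.29 on the log2 scale. The exact two-sided sign-flip test gave p = 0.5, and 3 arrays cannot give less than 0.25. In hybridisation 1 HSP82 joined scans of 0.03 at high and 0.36 at low power, while HSC82 was read at low power alone (0.40). With low power scans alone the mean difference was -0.10 (exact sign-flip p = 0.75). The difference over averaged scans was -0.02 without hybridisation 2 and -0.31 without hybridisation 3. Their coding sequences are very similar, and an array of cDNA may not separate them, so the value of each is uncertain. Among all genes tested, HSC82 was 17th in closeness to HSP82 by the root mean square difference over the 3 hybridisations (0.286). The 3 closest were JHD2 (0.0848), GIS2 (0.197) and YLR012C (0.207), each lowest in hybridisation 2.

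In the Hsp90 pair, hybridisation 2 lay farthest from the other arrays. There HSP82 stood at the 3.53rd percentile of all genes and HSC82 at the 12.6th, while in hybridisation 1 they stood at the 63.5th and the 73.2nd. The SD of HSP82 was at the 90.7th percentile of all SDs and that of HSC82 at the 80.5th. Without hybridisation 2 both means changed sign, to 0.14 for HSP82 and 0.16 for HSC82, and neither passed (adjusted p = 0.856 and 0.824 by limma). Without hybridisation 1, HSP82 passed as lower with a mean of -0.52 (adjusted p = 0.0166 by limma), although its remaining values, -1.13 and 0.08, had opposite signs. In that fit the spread was pooled fully over genes, so the distance between the arrays of HSP82 did not enter its test.

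The co-chaperones with a tetratricopeptide domain bind the tail of Hsp90. STI1, the adaptor that holds Hsp70 and Hsp90 together, had 0.18, -0.34 and -0.08, a mean of -0.08 ± 0.26 (adjusted p = 0.789). CPR6, a peptidyl-prolyl isomerase of the cyclophilin family, had 0.34, -0.50 and -0.12, a mean of -0.09 ± 0.42 (adjusted p = 0.787). Both spanned 0 and both were highest in hybridisation 1 and lowest in hybridisation 2. Their limma intervals, 0.688-fold to 1.30-fold for STI1 and 0.653-fold to 1.35-fold for CPR6, held no change of 2-fold. The arrays of CPR6 alone would give a wider interval, and a 2-fold fall of CPR6 is not excluded. Without hybridisation 2 the means turned to 0.05 for STI1 and 0.11 for CPR6. The features of STI1 and HSC82 carry consecutive numbers on the array, and whether they lay side by side is not given in the sources used here.

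AHA1, the activator of the Hsp90 ATPase, had 0.03, -0.55 and -0.13, a mean of -0.22 ± 0.30 (adjusted p = 0.452). Its value in hybridisation 2 joined scans that stood well apart, -0.18 at high and -0.93 at low power, so that the position of AHA1 in that array depended on the scan. The interval of its mean ran from 0.619-fold to 1.19-fold, and the mean was -0.05 without hybridisation 2.

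SBA1 is the yeast p23, which binds the closed, ATP-bound form of Hsp90 and slows its ATPase. It had 1.02, 0.39 and 0.89, above 0 in every hybridisation, and stood at the 89.0th, 75.6th and 91.6th percentile of all genes. The mean was 0.77 ± 0.34 (n = 3), or 1.70-fold, with a 95% interval from 1.21-fold to 2.38-fold and an adjusted p of 0.0421 by limma. SBA1 lay above HSP82 by 0.83, 1.51 and 0.81 in the 3 arrays, a pair set side by side after the values were seen, with p = 0.25 by the exact sign-flip test, the lowest it can give. SBA1 was not tested against the other co-chaperones. SBA1 was read by the low power scan alone in hybridisations 2 and 3, and in hybridisation 1 its scans gave 0.91 and 1.13.

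The call for SBA1 was close to the threshold. It ended without hybridisation 2 (mean 0.96, adjusted p = 0.0550 by limma), without hybridisation 3 (0.70, adjusted p = 0.223), when tested against a change of 1.2-fold (adjusted p = 0.122) and after centring of small blocks of feature numbers (0.60, adjusted p = 0.0545), described below. The mean was above 0 under every alternative in which SBA1 was measured.

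HSP104, the hexameric disaggregase needed for survival of severe heat, had 0.44, 0.36 and 0.83. All 3 values were above 0 and hybridisation 3 was the highest. The mean was 0.54 ± 0.25, or 1.46-fold, with an interval from 1.06-fold to 1.998-fold, and it did not pass after adjustment (adjusted p = 0.0865 by limma, unadjusted p = 0.0265). HSP104 was among the few of the 10 read in all 6 scans, with 0.46 and 0.41 in hybridisation 1, 0.36 and 0.36 in hybridisation 2, and 0.91 and 0.75 in hybridisation 3, at high and low power. Its scans differed by at most 0.16 within an array, and all 6 readings were above 0. The difference of HSP104 and HSP82 was 0.25, 1.49 and 0.74, above 0 in each array, with a mean of 0.83 ± 0.63 (exact sign-flip p = 0.25, the lowest possible). That mean difference was 0.495 without hybridisation 2. By root mean square difference the closest genes to HSP104 were STB2 (0.0387), MRP1 (0.0614) and APA2 (0.0627).

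Among the partners of Hsp70, YDJ1 encodes the main cytosolic J-domain protein, which is anchored to membranes by a lipid. YDJ1 had -0.62, -0.42 and -0.35, below 0 in every array and close together, with an SD at the 13.3rd percentile of all genes. Its mean of -0.46 ± 0.14, or 1.38-fold lower, did not pass (adjusted p = 0.108 by limma, unadjusted p = 0.0381), and its interval ran from 0.539-fold to 0.977-fold. SIS1, the essential J-domain protein that delivers aggregates and prions to Hsp70 and Hsp104, had -0.62, -0.23 and 0.11, a mean of -0.25 ± 0.36 (adjusted p = 0.425). SIS1 spanned 0, and like YDJ1 it was highest in hybridisation 3 and lowest in hybridisation 1, without which its mean was -0.06. FES1, a nucleotide exchange factor of cytosolic Hsp70, had -0.20, -0.43 and -0.24, a mean of -0.29 ± 0.12 (adjusted p = 0.278) and an interval from 0.609-fold to 1.10-fold. The FES1 value in hybridisation 2 joined scans of -0.81 and -0.04, the reverse of the order seen for AHA1.

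**Figure D2:**
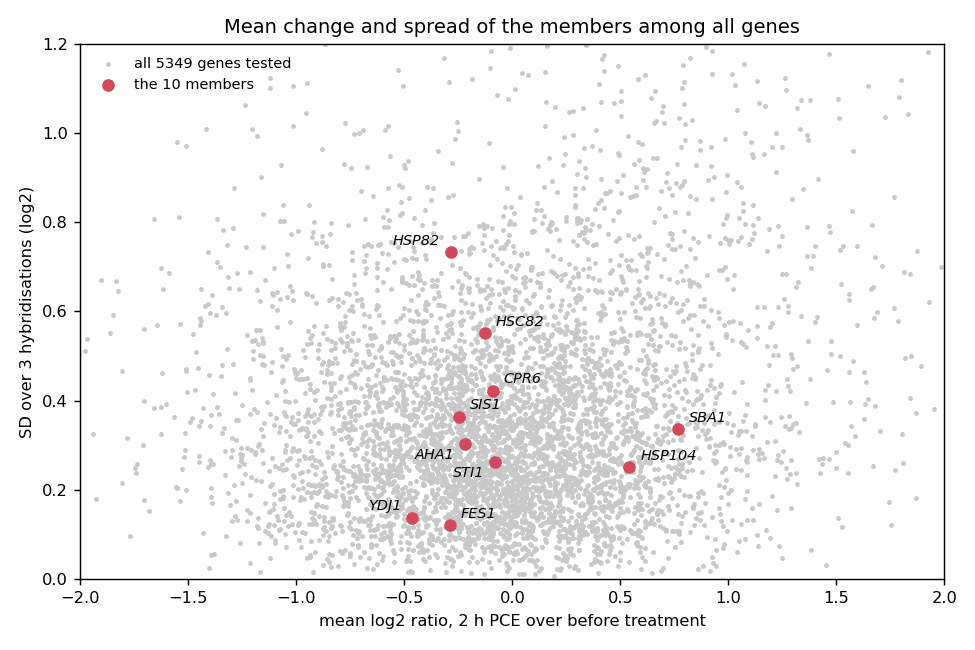
Mean log2 ratio (horizontal axis) against the SD over 3 hybridisations (vertical axis) for all 5349 genes tested (grey) and the 10 genes described (red). The axes leave out 107 genes with more extreme values. SBA1 and HSP104 lie to the right of the other 8, and HSP82 and HSC82 have the widest spread of the 10.

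In 7 of the 10 genes, HSP82, HSC82, STI1, CPR6, AHA1, SBA1 and FES1, hybridisation 1 was the highest and hybridisation 2 the lowest, an order found in 16.6% of all genes. The median over the 10 was 0.19, -0.43 and -0.07 in hybridisations 1, 2 and 3, where the medians over all genes were -0.08, -0.02 and -0.01. Many of the 10 were read in fewer scans than most genes. In hybridisation 2, 7 of the 10 genes had no high power value (70.0%, against 14.0% of named features), in hybridisation 3, 6 had none (60.0% against 10.1%), and in hybridisation 1 only HSC82 had none, as did 1.14% of named features. AHA1 and FES1, read at both powers in hybridisation 2, had the order once their scans were averaged. AHA1 had it at low power but not at high power (0.05, -0.18 and -0.24), and FES1 had it at neither power alone. YDJ1 and SIS1, read in hybridisation 2 at low power alone, did not have the order. Whether missing high power values bear on the order was not tested.

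Genes read at low power alone in hybridisation 2 had a median of -0.24 there, over 714 genes with a middle range from -0.83 to 0.33 (lower to upper quartile). Over 4592 genes with both scans, the low power median was 0.02 in that array. The 7 genes of interest in the first set had a median of -0.42, and 12.2% of the set lay at or below HSP82. The genes of that set had a median of -0.41 in hybridisation 1, so they were low there as well. Hybridisation 3 went the other way, with a median of 0.18 over 499 genes read at low power alone, 0.01 over the 6 of the 10 among them, and 45.1% at or below HSP82. The scans of hybridisation 2 differed by a median of 0.349 over named features, against 0.177 in hybridisation 1 and 0.202 in hybridisation 3. A difference of 0.712, the 90th percentile in hybridisation 2, was exceeded by both AHA1 (0.75) and FES1 (0.76).

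**Figure D3:**
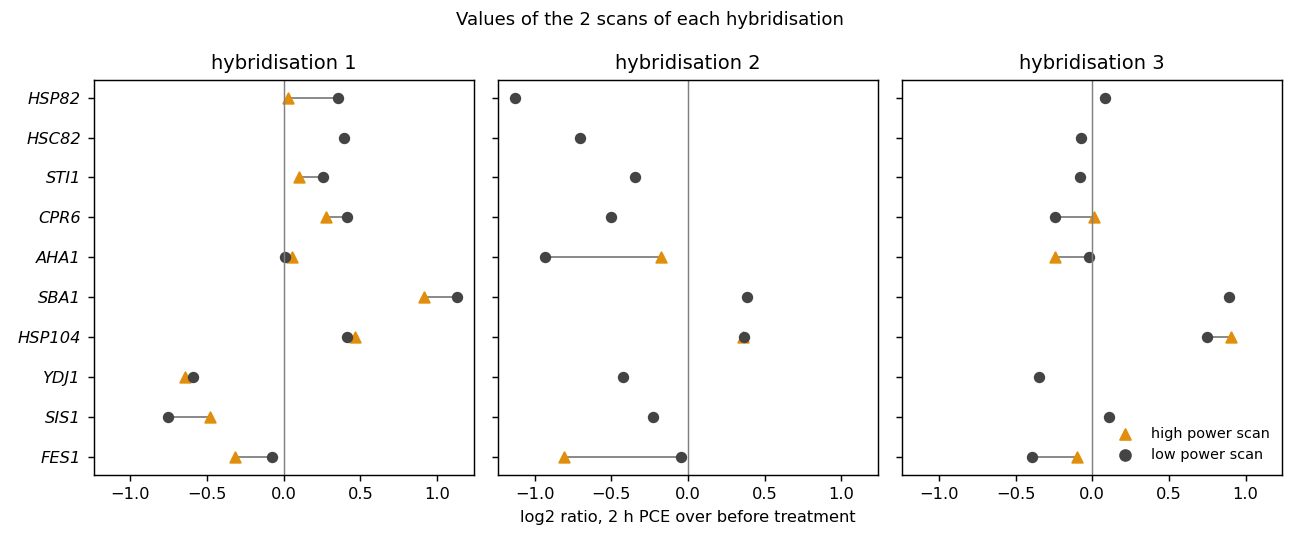
Log2 ratio (horizontal axis) of each of the 10 genes at high power (orange triangles) and low power (dark circles) in the 3 hybridisations, with a grey line joining the scans of 1 array. High power values are missing for 7 of 10 genes in hybridisation 2 and 6 in hybridisation 3, and the scans of HSP104 lie close together in each array.

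Some of these values differed after centring by feature number. Numbers that share their first 3 digits form 192 blocks of 36 features, whose medians ran from -0.65 to 0.45 in hybridisation 1, -0.54 to 0.46 in hybridisation 2 and -0.39 to 0.31 in hybridisation 3 (5th to 95th percentile of blocks). The block of HSP104 had medians of -0.50, -0.57 and -0.25, and that of CPR6 had -0.61, -0.66 and -0.33, so both genes lay above their blocks in all 3 arrays. With every scan centred by block, HSP104 had 0.94, 0.91 and 1.07, a mean of 0.97 ± 0.09 or 1.96-fold, and passed (adjusted p = 0.0164 by limma). After this centring 898 of 5349 genes passed, against 1125 without it. CPR6 turned from -0.09 to 0.46 and did not pass (adjusted p = 0.156). SBA1 did not pass at 0.60 ± 0.18, and the means of HSP82 and HSC82 stayed below 0 (-0.29 and -0.23). SIS1 went from -0.25 to -0.46, with -0.75, -0.29 and -0.33 in the 3 arrays, and did not pass (adjusted p = 0.116), though its unadjusted p was under 0.05. The means of STI1 (-0.17), AHA1 (-0.10), FES1 (-0.14) and YDJ1 (-0.35) did not pass, and that of YDJ1 no longer had an unadjusted p under 0.05. HSP104 minus HSP82 was then 1.26 and HSP82 minus HSC82 -0.06. This centring was added after the values were seen, and whether a block is a printed area or holds genes that truly differ was not tested. Centring by 8 larger blocks left the calls among the 10 as they were, with SBA1 as the one that passed, where 1216 of 5349 genes passed.

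Other genes of the same chaperone network were taken from lists drawn from general knowledge, and are described by their counts beside the 21.0% of all genes that passed. Of 8 further Hsp90 co-chaperones, 0 rose by limma, 2 fell and 6 did not pass, 4 stood at an unadjusted p under 0.05, and the median of their means was -0.42. PPT1, the protein phosphatase that acts on Hsp90, had -1.70, -0.99 and -1.50, a mean of -1.40 ± 0.37 (adjusted p = 0.0112 by limma). The scans of PPT1 differed by more than 0.5 in at least 1 array. CPR7, the close relative of CPR6, had -1.58, -0.80 and -0.81, a mean of -1.06 ± 0.45 (adjusted p = 0.0215 by limma). The highest of the list was SGT1, a co-chaperone of kinetochore and ubiquitin ligase clients, at 0.37 ± 0.12 (adjusted p = 0.179), and CDC37, which brings kinases to Hsp90, had 0.14 ± 0.28. The call for CPR7 ended after centring of small blocks (-0.70, adjusted p = 0.0632) and in a test against 1.2-fold (adjusted p = 0.0519).

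The cyclophilins CPR6 and CPR7 thus stood apart in every array, with CPR6 higher by 1.92, 0.30 and 0.69, a mean of 0.97 ± 0.85 on the log2 scale (exact sign-flip p = 0.25, the lowest possible, for a pair chosen after the values were seen). AHA1 and its short relative HCH1, which also binds the middle part of Hsp90, did not hold 1 order, with AHA1 minus HCH1 at 0.66, -0.39 and 0.52.

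Of 9 genes for Hsp70 chaperones, their exchange factors and small heat shock proteins, 8 were measured (all but SSA1). Among these 2 rose, 0 fell by limma and 6 did not pass, with the same 2 at an unadjusted p under 0.05 and a median of 0.35. They were HSP26, a small heat shock protein that binds unfolded proteins (2.91 ± 0.52, adjusted p = 0.00733), and SSE2, an Hsp110 exchange factor (1.43 ± 0.26, adjusted p = 0.00954). SSA4, the heat-inducible Hsp70, had 2.70, 0.27 and 0.23 and did not pass (adjusted p = 0.149), and its mean of 1.06 rested on hybridisation 1. The lowest was SSA3, another inducible Hsp70, at -0.46 ± 0.30 (adjusted p = 0.135). At high power alone 3 of these 8 genes were measured, HSP26 not among them, and SSE2 rose (1.33, adjusted p = 0.0152 by limma). HSP26 was not measured in all 3 arrays at low power alone either, so its mean joins different powers.

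Of 10 other J-domain proteins that face the cytosol, XDJ1 rose, ZUO1 and HLJ1 fell and 7 did not pass, with 4 at an unadjusted p under 0.05 and a median of -0.04. XDJ1, a relative of YDJ1, had 0.75, 1.16 and 1.02, a mean of 0.98 ± 0.21 (adjusted p = 0.0172 by limma). The scans of XDJ1 differed by more than 0.5 in at least 1 array, with means of 0.81 at high and 1.15 at low power. YDJ1 lay below XDJ1 in every array, by -1.37, -1.58 and -1.37 on the log2 scale (exact sign-flip p = 0.25, the lowest possible, for a pair chosen after the values were seen). ZUO1, the J-domain protein bound to ribosomes, had -1.40, -0.88 and -1.17, a mean of -1.15 ± 0.26 (adjusted p = 0.0131). HLJ1, in the membrane of the endoplasmic reticulum, had a mean of -0.67 ± 0.13 (adjusted p = 0.0432), a call that ended at low power alone (adjusted p = 0.0650) and after centring of small blocks (-0.29, adjusted p = 0.217).

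Of 9 further genes widely described as Hsf1 targets, 8 were measured (all but SSA1). MBF1 rose, the pair BTN2 and CUR1 fell, and the remaining 5 missed the threshold, with 4 at an unadjusted p under 0.05 and a median of -0.12. MBF1, a transcriptional coactivator, had 0.62, 0.79 and 0.74, a mean of 0.72 ± 0.09 (adjusted p = 0.0342 by limma). BTN2 and CUR1, related factors that sort aggregates, had means of -1.32 ± 0.52 (adjusted p = 0.0154) and -0.67 ± 0.18 (adjusted p = 0.0461). The scans of MBF1 and of CUR1 differed by more than 0.5 in at least 1 array. At high power alone the means of MBF1 and CUR1 were 0.61 and -0.50, and at low power alone 0.82 and -0.84. After centring of small blocks BTN2 had -0.81 (adjusted p = 0.0835) and CUR1 -0.21 (adjusted p = 0.379), and 2 of the list then rose and 0 fell by limma. Among 4 regulators, SKN7, a response regulator of oxidative stress genes, fell (-0.71 ± 0.13, adjusted p = 0.0367) and 3 did not pass, with 2 at an unadjusted p under 0.05 and a median of 0.26. HSF1 itself had 1.27, 0.09 and 0.22, a mean of 0.53 ± 0.65 (adjusted p = 0.195), high in hybridisation 1 alone, and the call for SKN7 ended after centring of small blocks (-0.24, adjusted p = 0.371).

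**Figure D4:**
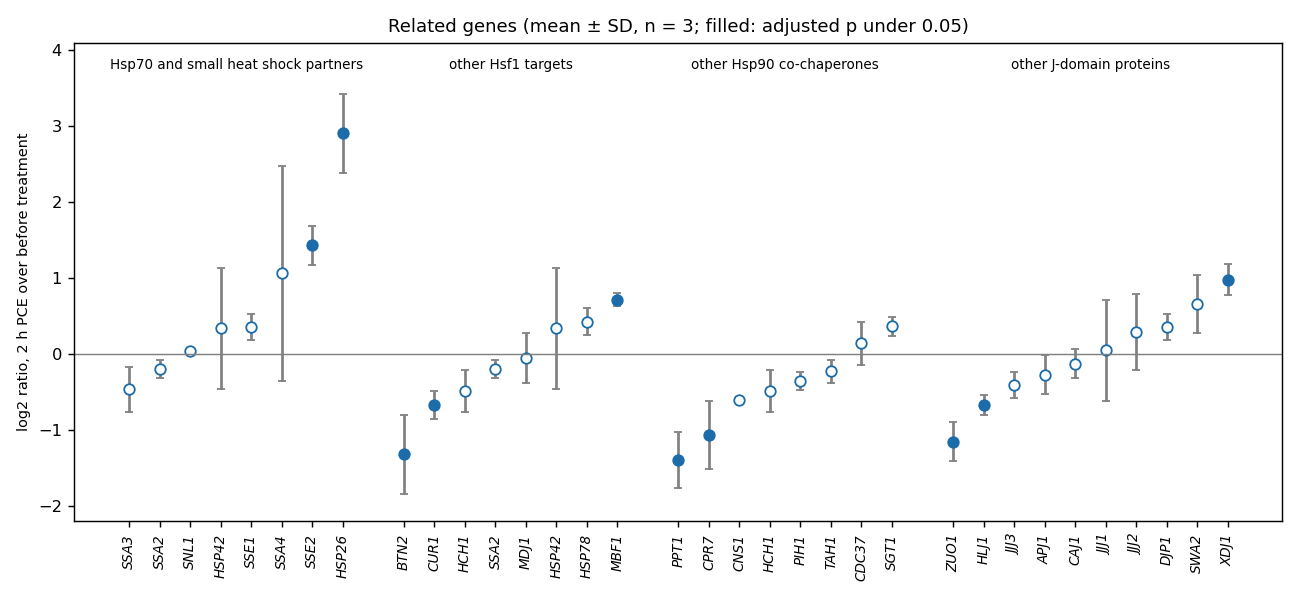
Mean log2 ratio ± SD over 3 hybridisations (vertical axis) of the related genes in 4 lists, ordered by mean within a list, with filled circles for an adjusted p under 0.05. HSP26 and SSE2 were highest, PPT1 and BTN2 lowest, and HCH1, HSP42 and SSA2 appear in 2 lists each.

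Genes of meiosis stood for another cell state. Of 7 measured, 0 passed by limma in either direction and 2 had an unadjusted p under 0.05, with a median of 0.13. The 7 means ranged from IME2 (-0.27 ± 0.22) to SPO11 (1.70 ± 1.87), and SPO11 had 3.86 in hybridisation 1 against 0.57 and 0.66.

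Without hybridisation 3, 1 gene of 5349 passed by limma, HSP12, while 1314 had an unadjusted p under 0.05. SBA1 and each related gene named above lost its call on the 2 arrays left, but the means stayed of like size, at 0.70 for SBA1 and MBF1, 2.65 for HSP26, 1.30 for SSE2, 0.96 for XDJ1, -1.34 for PPT1, -1.19 for CPR7, -1.14 for ZUO1, -0.65 for HLJ1, -1.08 for BTN2, -0.59 for CUR1 and -0.64 for SKN7. Without hybridisation 2, XDJ1 (mean 0.89, adjusted p = 0.0778), HLJ1 (-0.74, 0.150), CUR1 (-0.64, 0.225), MBF1 (0.68, 0.195) and SKN7 (-0.77, 0.131) did not pass by limma, again with means close to those over 3 arrays. A test against a change of 1.2-fold likewise ended the calls of HLJ1 (adjusted p = 0.149), CUR1 (0.155), MBF1 (0.115) and SKN7 (0.120), and CUR1 also missed at high power alone (0.0756) and with arrays centred on their median (0.0539). Without hybridisation 1, 2281 genes (42.6%) passed, and of the 10 genes SBA1 (0.64, adjusted p = 0.00280) and HSP104 (0.59, adjusted p = 0.00580) passed as higher and HSP82 as lower, by limma. That fit pooled the spread fully over genes, so the distance between a gene's 2 remaining values did not enter its test. The number of arrays limits the precision, and no spot intensities were used here.

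Genes next to the 10 on their chromosomes were taken by gene order in the reference annotation, a step added after values were seen. Of 20 neighbours 19 were measured, 2 rose, 1 fell and 16 did not pass, beside the 21.0% of all genes that passed. The means of those 16 ran from -0.65 (YAR1, beside HSP82) to 0.71 (CIN5, beside STI1). YDJ1 lies beside AQR1, a plasma membrane exporter, which rose (1.73, 1.80 and 2.66, a mean of 2.06 ± 0.52, adjusted p = 0.00841 by limma), while YDJ1 was below 0 in all 3 arrays. HSP104 lies beside PAU17, of the seripauperin family, whose near-identical copies an array may not separate (1.36 ± 0.73, adjusted p = 0.0212), and ISA1, of iron-sulfur cluster assembly (0.33 ± 0.88, adjusted p = 0.493). The neighbours of SBA1 were VPH2 (0.14 ± 0.29) and PRR1 (-0.41 ± 0.23), and neither passed (adjusted p = 0.627 and 0.159). AHA1 lies beside UPC2, a regulator of sterol genes, which fell (-0.93 ± 0.21, adjusted p = 0.0198).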

How the data were processed

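The values are 2-colour array log2 ratios, which the authors deposited after LOWESS normalisation on unflagged spots (flag 0), per the labels. The sources used here give no scanner, spot software, background correction or log base. The table held 6912 features, of which 5513 had 1 gene name, 0 several and 1399 none in the platform annotation. Current names came from the R64 gene table by gene ID (5508 features matched, 5 kept older names). Scans of a hybridisation were averaged, then features of a gene. A value in all 3 hybridisations was required, which left out 16 genes.

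Each mean was tested against 0 across all genes by an intercept-only limma model (version 3.58.1, R 4.3.3; lmFit, eBayes; two-sided; Benjamini-Hochberg). Differences between 2 genes were tested by exact sign-flip permutation. Intervals are from limma's moderated error, with 6.81 degrees of freedom. The procedure was run on data simulated with independent normal errors, which hold no block effects and no scan differences. That run therefore cannot show how either affects the calls here. Named were the 10 genes whatever their values, and from each list up to 4 genes past the threshold, the highest and the lowest; other names, such as CDC37, SSA4, HCH1 and the chromosomal neighbours, were added after values were seen. The genes and lists were chosen with earlier results of these data known. Alternatives varied the scan, the filter on scans, centring, scaling, block, prior, minimum fold and hybridisations. Promoter and protein sequences were not used here.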

Additional observations from a re-analysis of the deposited data

How the results depend on the processing

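Of 134 means of the 10 genes recomputed under the alternatives, 121 kept their sign and their side of the threshold, 4 passed newly, 4 lost a call (each SBA1) and 5 changed sign. Without single hybridisations the mean ranged from -0.52 to 0.14 for HSP82, -0.39 to 0.16 for HSC82, -0.210 to 0.0515 for STI1, -0.31 to 0.11 for CPR6, -0.34 to -0.05 for AHA1 and -0.42 to -0.06 for SIS1. The sign of the first 4 turned where the low value of hybridisation 2 was left out. CPR6 also turned after centring of small blocks (0.46), and the cause was not tested. High power values alone, or a value required from each of the 6 scans, left 3 of the 10 genes, SBA1 not among them. Of these 3, 0 passed as higher by limma, with 1 (HSP104) at an unadjusted p under 0.05. At high power alone 977 of 4572 genes passed. In the test against 1.2-fold 0 passed as higher by limma, with 1 (SBA1) at an unadjusted p under 0.05. With hybridisation as a random block 2 were higher, SBA1 and HSP104 (adjusted p = 0.0300). Leaving out single hybridisations gave 0 to 2 higher and 0 to 1 lower. Over all genes, the count of 1125 went to 546 where all 6 scans were required (2672 tested) and 691 with scans within 0.5 (3435 tested). It went to 514 in the test against 1.2-fold, to 1741 with hybridisation as a random block, and to between 1 and 2281 without single hybridisations. The differences HSP82 minus HSC82 and HSP104 minus HSP82 kept their sign under each alternative in which both genes were measured, with ranges of -0.31 to -0.02 and 0.495 to 1.26, and could not be had at high power alone or where all 6 scans were required. No paired analysis was possible because there is a single group and each ratio already pairs the cultures.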
